A study of Mus musculus with 6 samples.

Results

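The genes described here are 52 genes of the cell cycle and of DNA replication, followed across 6 conditions in mProx24 cells, an established line of mouse kidney proximal tubule cells. They were taken by symbol from the gene names of the arrays, with 1 probe for each gene, the brightest on average over the 6 arrays among probes without an outlier mark. The 52 are 31 genes that act in G1 and S phase, 19 that act in G2 and mitosis, and 2 inhibitors of cyclin-dependent kinases, out of 34574 gene names on the arrays. RNA was measured on 6 single-colour Agilent arrays, 1 for each condition. The triple stimuli array came from cells given high glucose, palmitate and hypoxia together, and the rapamycin array from cells given the same 3 stimuli plus rapamycin, which inhibits the growth-promoting kinase complex mTORC1. The remaining arrays were hypoxia alone, high glucose alone, high FFAs alone (free fatty acids, here palmitate), and control. The labels' protocols give palmitate as 150 µM for 9 h, bound to 0.15% bovine serum albumin. Hypoxia was 1% oxygen for 12 h before it, and rapamycin was 0.4 µg/ml for 12 h before it. Oxygen was 20% for control and for both single-nutrient arrays. How much glucose was used, and the vehicle of rapamycin, is not given in the sources used here. All cells were of 1 line, listed under strain C57B6, and were subconfluent when treated.

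The arrays labelled high glucose and high FFAs cannot be assigned to a stimulus, because the scanner files and the deposited value table carry these labels the opposite way round. In its scanner file array A carries the label high glucose, while the table calls it high FFAs; for array B these labels change places. Nothing is stated here on which stimulus either received.

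Cells enter the division cycle when D-type cyclins with Cdk4 or Cdk6, and then cyclin E with Cdk2, release E2F transcription factors from the retinoblastoma protein. E2F factors raise the genes for licensing of replication origins, for the replication fork and for making deoxynucleotides. A later wave of genes, which includes cyclins A and B, Cdk1 and the spindle and kinetochore proteins, is switched on in G2 and serves mitosis. mTORC1 links nutrient supply to growth and to entry into the cycle, and the proximal tubule is mostly quiescent in the healthy kidney but divides in culture.

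A level is the log2 signal of a probe relative to the 75th percentile of its array, and a difference is 1 array's level minus another's. For a gene to be compared, the scanner software had to call its probe well above background on 1 or both of the arrays set side by side. Differences of 2-fold or more and of 1.4-fold or more (0.5 on the log2 scale) were counted, and only a gene past the 1.4-fold mark is said to have risen or fallen. With 1 array per condition there is no replicate error and no test, and precision is limited by the number of arrays. The only repeats are spots of the same probe on 1 array. Over the 94 or 95 probes with several spots, the SD between spots of a log2 difference had a median of 0.06 to 0.08, and the scanner software's own error on the members' signals had a median of 10.0%. Both cover the spot and not the culture or the RNA sample. A lower level on these bulk samples can come from fewer cells in a phase of the cycle or from less RNA per cell, which cannot be told apart.

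Of the 52 genes, 49 were well above background on all 6 arrays. Ccnd2 was so on 5 and dim in hypoxia, while Ccne2 (cyclin E2) and Aurkb (the Aurora B kinase of the centromere) were so on no array. That left 50 measured genes on 1 array or more, and 49 on all 6, against 19047 and 14991 of the 34574 gene names. Between 40.3% and 43.8% of spots were well above background on each array and 0 were saturated. The arrays shared 1 slide, whose rows each held 3 of them, with 1% oxygen in one row and 20% oxygen in the other, so that oxygen and the row of the slide cannot be told apart. In the first 64 of 384 spot rows, 10.0% of genes were at least 2-fold higher in hypoxia than in control, against 2.22% in the last 64, and the share was 7.28% against 0.153% for rapamycin over triple stimuli. Of the measured cell cycle genes 8 lie in those rows, and none of those called at 1.4-fold is among them. Of 11 proximal tubule markers 5 were above background on all 6 arrays, Lrp2 and Cubn among them, and 6 on none, Slc34a1 among them, so the line carried the proximal tubule label with only part of the type's markers. Of 3 epithelial markers, the keratins Krt8 and Krt18 were above background on all 6 arrays and Epcam on none. Of markers of other cell types, 0 of 4 for fibroblasts were above background on all 6, and 1 each was for distal tubule and duct (Aqp2, of 4), endothelium (Kdr, of 3) and leukocytes (Cd68, of 3); their part in the results was not tested.

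Few of the cell cycle genes passed a fold mark. Only Cdkn2c, in triple stimuli against control, was 2-fold different, 1 of 50 measured genes in that comparison, where 7.13% of all genes measured were 2-fold different. No member was 2-fold different for rapamycin against triple stimuli (4.1% of all genes), rapamycin against control (7.23%), hypoxia against control (5.31%), array A against control (4.16%) or array B against control (1.05%). These shares include dim genes, whose differences scatter more, and 47 of the 50 members are among the 10629 bright genes with a mean level of 0 or more. Of the bright genes 4 were 2-fold higher and 13 lower for rapamycin against triple stimuli, 197 and 124 for rapamycin against control, and 271 and 105 for triple stimuli against control. In hypoxia 212 bright genes were higher and 20 lower, on array A 119 and 26, and on array B 7 and 5. All comparisons but rapamycin against triple stimuli share the control array, and the triple stimuli array enters 2 of the 6, so the comparisons are not independent of each other.

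At 1.4-fold, rapamycin against triple stimuli had 0 members higher, beside 5.5% of all genes, and 2 lower, Ccnd1 and Ccnd2, which is 4.0% beside 6.57%. Rapamycin against control had 0 higher, beside 13.0%, and 7 lower, which is 14.0% beside 11.6%. In triple stimuli against control 1 member was higher (2.0% beside 13.2%) and 2 were lower (4.0% beside 10.5%). In hypoxia against control 0 were higher, beside 9.58%, and 5 lower, which is 10.0% beside 4.88%. Array A against control had 1 higher (2.0% beside 8.67%) and 2 lower (4.0% beside 7.94%), and array B had 0 in either direction, beside 2.68% higher and 3.14% lower. Most of these shares were under the share over all genes, which include the dim genes. The exceptions were the genes lower in hypoxia and, by little, those lower with rapamycin than in control. Among bright genes the shares higher and lower were 1.09% and 2.34% for rapamycin against triple stimuli, 9.66% and 8.53% for triple stimuli against control, 4.54% and 3.17% in hypoxia, 5.28% and 3.5% on array A, and 0.188% and 0.348% on array B. For rapamycin against control 7.94% of bright genes were higher, and 1141 of the 10629 were lower. Beside bright genes, the members' shares lower were larger for rapamycin against triple stimuli (4.0%), for rapamycin against control (14.0%) and in hypoxia (10.0%). On array A the share lower was larger by little (4.0%). It was smaller for triple stimuli against control (4.0%) and on array B. The members' shares higher were under those of bright genes in every comparison. Ccnd2 and Tyms, which are among the lower members, are not bright themselves.

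**Figure D1:**
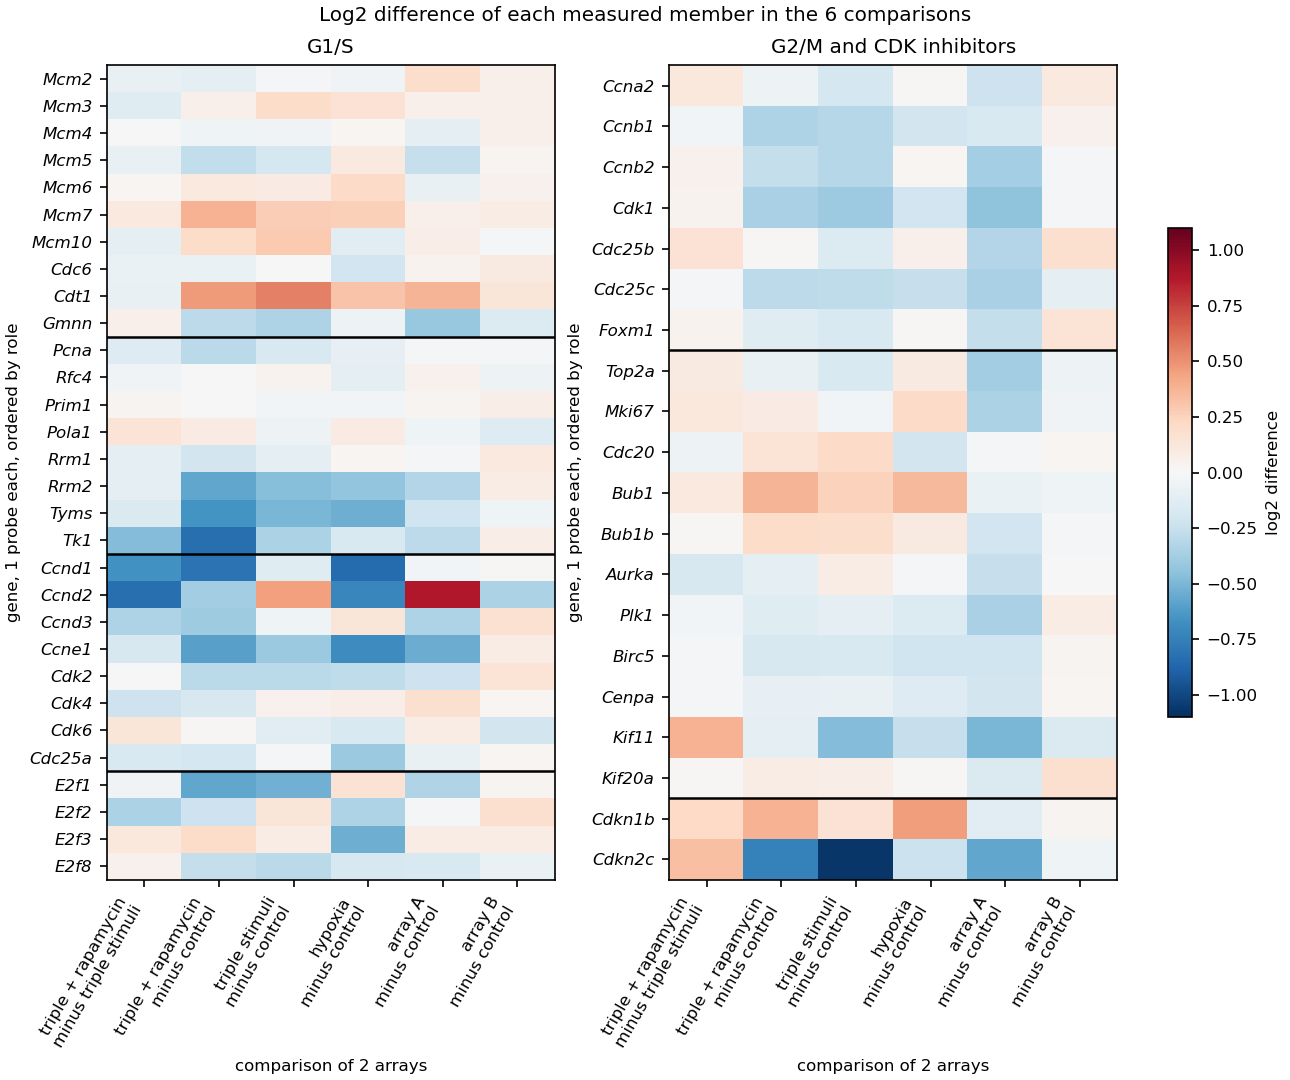
Log2 difference of each of the 50 measured genes (rows, ordered by role) in the 6 comparisons of 2 arrays (columns), red for higher and blue for lower in the first-named array. The strongest blue cell is Cdkn2c in triple stimuli minus control, at -1.07, and the G2/M genes are blue or, for Cdc20, near white in the column for array A minus control. The Ccnd2 cell for hypoxia rests on a level not well above background.

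The 2 phases differed in which arrays carried their low values. For the 30 measured G1/S genes the median difference was -0.08 for rapamycin against triple stimuli, -0.19 for rapamycin against control, -0.05 for triple stimuli against control, -0.10 for hypoxia against control, -0.02 for array A and 0.06 for array B. For the 18 measured G2/M genes the same medians were 0.02, -0.10, -0.16, -0.01, -0.26 and 0.01. Over all genes measured they lay between -0.04 and 0.02. For bright genes, to which most members belong, they were -0.05, -0.07, -0.03, -0.05, -0.01 and 0.02 in the same order. The lowest median of the G1/S genes was thus with rapamycin against control, and that of the G2/M genes on array A. In a wider set of 52 other G1/S genes the median for rapamycin against control was -0.07 and the lowest was that of triple stimuli against control, at -0.09, so that order does not extend to it. In 55 other G2/M genes the lowest median was again that of array A, at -0.19.

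**Figure D2:**
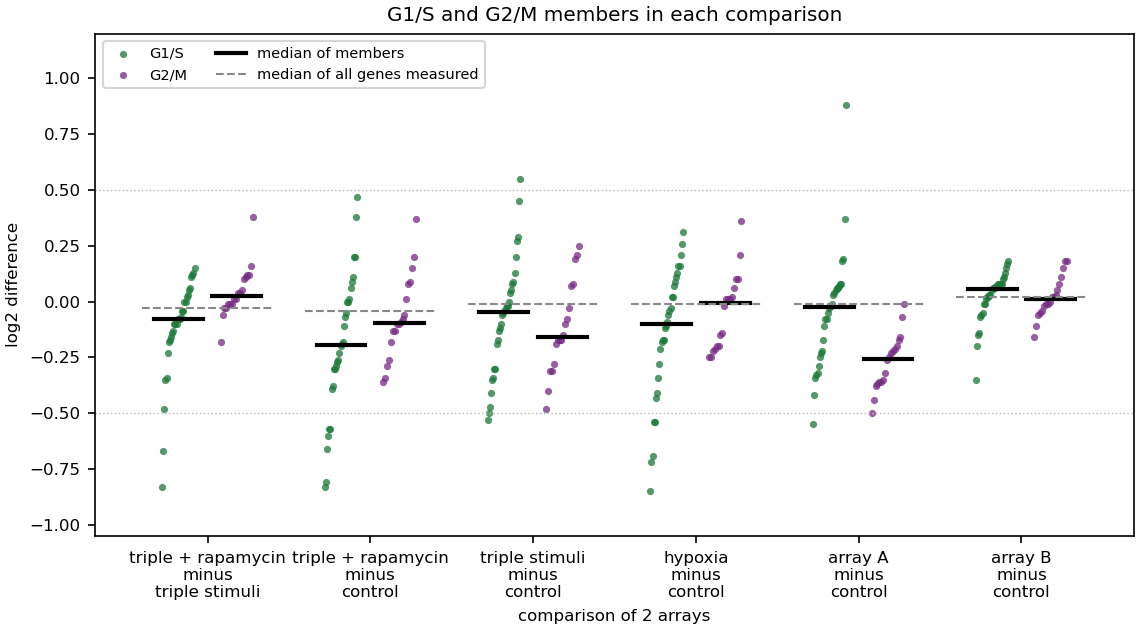
Each point is 1 gene, green for G1/S (30 genes) and purple for G2/M (18 genes), with its log2 difference on the vertical axis and the 6 comparisons along the horizontal axis; black bars are medians of the points and grey dashed lines medians of all genes measured, and dotted lines mark 1.4-fold. All 18 purple points lie under 0 on array A, where their median was -0.26.

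The level of each gene was also ordered over the 6 arrays, for the 29 G1/S and 18 G2/M genes on all of them. Array A held the lowest level of 15 of 18 G2/M genes, or 83.3%, against 13.0% of bright genes. It held the lowest level of 3 of 29 G1/S genes, or 10.3%. For G1/S genes the lowest level was on the rapamycin array for 11 and on the hypoxia array for 9, which is 37.9% and 31.0%, beside 29.7% and 20.2% of bright genes. Of the 52 other G1/S genes the lowest level was on the rapamycin array for 11, on the triple stimuli array for 12 and on the hypoxia array for 11, or 21.2%, 23.1% and 21.2%. Array B held the highest level of 12 of 29 G1/S genes (41.4%) and of 8 of 18 G2/M genes (44.4%), beside 25.1% of bright genes. It did so for 15 of the 52 other G1/S genes (28.8%) but for only 9 of the 55 other G2/M genes (16.4%), of which 18 (32.7%) were highest on the rapamycin array.

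The 10 genes for licensing of origins held 1 call. They are the 6 subunits of the replicative helicase, Mcm2 to Mcm7, with Mcm10, the loading factors Cdc6 and Cdt1, and Gmnn (geminin), which blocks Cdt1 after origins have fired. Over the 6 comparisons only Cdt1, in triple stimuli against control, passed 1.4-fold. Cdt1, measured by a probe at chr8:125096893-125096952 (mm9), had a log2 level of 6.07 with triple stimuli and rapamycin, 6.15 with triple stimuli, 5.91 in hypoxia, 5.97 on array A and 5.73 on array B, against 5.60 in control. It rose 1.46-fold with triple stimuli, and control had its lowest level of the 6. The difference was 0.47 with rapamycin against control, short of the mark. With the background estimated by normexp, a model of signal plus background, the triple stimuli difference was 0.46, which ends the call.

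Mcm7 was at 6.63 with triple stimuli and rapamycin, 6.51 with triple stimuli, 6.51 in hypoxia, 6.30 on array A and 6.32 on array B, against 6.25 in control. The 3 arrays at 1% oxygen were thus the 3 highest, by at most 0.38 over control. How many of all genes have these 3 arrays highest or lowest was not counted, here or for the genes below. Such an order therefore does not mark a gene as linked to oxygen. Gmnn stood at 2.49 with triple stimuli and rapamycin, 2.43 with triple stimuli, 2.72 in hypoxia, 2.36 on array A and 2.63 on array B, against 2.78 in control, the highest of its 6 levels. Its other probe differed by -0.58 in triple stimuli against control and by 0.35 in hypoxia, where the brighter probe gave -0.34 and -0.06, so the 2 probes disagree in hypoxia. Mcm10, which joins the helicase at activated origins, measured 4.42 with triple stimuli and rapamycin, 4.52 with triple stimuli, 4.11 in hypoxia, 4.30 on array A and 4.22 on array B, against 4.23 in control. Its highest levels were those of the triple stimuli arrays and its lowest that of hypoxia. The other 6 genes, Mcm2 to Mcm6 and Cdc6, ranged over at most 0.38 among the 6 arrays. A further Cdc6 probe, above background on all 6 arrays, was past the mark at -0.54 for rapamycin against triple stimuli. It was short of the mark at -0.44 for rapamycin against control, and the brighter probe gave -0.07 for both. Both Cdc6 probes lie in the first 64 spot rows.

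Nucleotide supply held several of the lower genes, while the fork proteins stayed close to control. Rrm2 is the small subunit of ribonucleotide reductase, which makes deoxynucleotides. Its level (chr12:25398824-25398883, mm9) was 5.74 with triple stimuli and rapamycin, 5.84 with triple stimuli, 5.88 in hypoxia, 5.99 on array A and 6.39 on array B, against 6.31 in control. The 3 arrays at 1% oxygen were lowest, array A next, and array B and control close together. Only the rapamycin array passed the mark, at 0.672 of control, with a log2 difference of -0.57, beside -0.47 for triple stimuli and -0.43 for hypoxia. Under quantile normalization, which gives all arrays 1 distribution, the rapamycin difference was -0.45 and no longer passed.

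Tyms, thymidylate synthase, likewise had the 3 arrays at 1% oxygen lowest and array A next. It measured -1.0 with triple stimuli and rapamycin, -0.84 with triple stimuli, -0.88 in hypoxia, -0.56 on array A and -0.39 on array B, against -0.34 in control (chr5:30385578-30385637, mm9). It fell to 0.631 of control with rapamycin and to 0.687 of control in hypoxia, and stood at 0.707 of control with triple stimuli, just short of the mark. With the normexp background these differences were -0.47 with rapamycin and -0.38 in hypoxia, both under the mark. Tk1, thymidine kinase, had levels of 3.75 with triple stimuli and rapamycin, 4.23 with triple stimuli, 4.41 in hypoxia, 4.29 on array A and 4.65 on array B, against 4.58 in control (chr11:117676845-117676904, mm9). The rapamycin array was the lowest by 0.48 below triple stimuli and by 0.83 below control, a fall to 0.563 of control. A further Tk1 probe, in the first 64 spot rows, gave differences of -0.41 and -0.81 for the same pairs, and one more was dim on all arrays.

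Pcna, the sliding clamp of the fork, was at 5.92 with triple stimuli and rapamycin, 6.05 with triple stimuli, 6.13 in hypoxia, 6.20 on array A and 6.20 on array B, against 6.22 in control. The rapamycin level was the lowest, 0.30 below control. Rfc4 of the clamp loader, the primase subunit Prim1, the polymerase subunit Pola1 and Rrm1, the large reductase subunit, ranged over at most 0.31 among the arrays, and Prim1 over 0.11 only.

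The cyclins of G1 held the largest differences of the G1/S genes. Ccnd1, cyclin D1, had a level of 2.73 with triple stimuli and rapamycin, 3.40 with triple stimuli, 2.68 in hypoxia, 3.50 on array A and 3.54 on array B, against 3.53 in control (chr7:152116202-152116261, mm9). The rapamycin and hypoxia arrays were low and the other 4 lay between 3.40 and 3.54. It fell to 0.553 of control in hypoxia and to 0.571 of control with rapamycin, but stood at 0.911 of control with triple stimuli, although those cells were in 1% oxygen too. Rapamycin against triple stimuli was 0.627-fold, a log2 difference of -0.67.

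Ccnd2, cyclin D2, is dim on these arrays. It was at -2.68 with triple stimuli and rapamycin, -1.85 with triple stimuli, -3.02 in hypoxia, where it was not well above background, -1.42 on array A and -2.65 on array B, against -2.30 in control (chr6:127098696-127098755, mm9). Array A was highest, 0.88 above control. Hypoxia was lower than control by 0.72 on the log2 scale, a value that rests on the uncertain hypoxia level. Rapamycin was 0.83 below triple stimuli. With the normexp background the 3 differences were 0.44, -0.12 and -0.40, all under the mark, so each of these calls rests on how background was handled. Ccnd3, cyclin D3, stayed within 0.56 over the arrays and passed the mark in no comparison.

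Ccne1, cyclin E1, was at 2.84 with triple stimuli and rapamycin, 3.03 with triple stimuli, 2.75 in hypoxia, 2.89 on array A and 3.52 on array B, against 3.44 in control (chr7:38882937-38882960, mm9). Array B and control were high and the other 4 low. It fell to 0.662 of control with rapamycin, to 0.621 of control in hypoxia and to 0.683 of control on array A, and triple stimuli was at 0.751 of control. A further Ccne1 probe had the same direction in all of these, with log2 differences of -1.22 with rapamycin, -0.85 with triple stimuli, -1.22 in hypoxia and -0.96 on array A, each larger in size than those of the brighter probe. It gave -0.26 on array B, where the brighter probe gave 0.08.

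Cdc25a, the phosphatase that activates Cdk2, was at 2.16 with triple stimuli and rapamycin, 2.33 with triple stimuli, 1.94 in hypoxia, 2.27 on array A and 2.37 on array B, against 2.35 in control. Hypoxia was lowest, by 0.41 below control. The kinases themselves changed less, with Cdk2 at -0.30 for both triple stimuli arrays against control and Cdk4 and Cdk6 between -0.20 and 0.18 in all 5 comparisons with control. This range holds for the brightest probes. Both further Cdk4 probes, above background on all 6 arrays, gave 0.32 on array A, and -0.10 and -0.25 with rapamycin against control.

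The activating factors E2f1, E2f2 and E2f3 did not move together. E2f1 was at 2.84 with triple stimuli and rapamycin, 2.88 with triple stimuli, 3.57 in hypoxia, 3.08 on array A and 3.44 on array B, against 3.41 in control (chr2:154385798-154385857, mm9). It fell to 0.672 of control with rapamycin and to 0.692 of control with triple stimuli, while hypoxia had its highest level. E2f3 was at 1.60 with triple stimuli and rapamycin, 1.48 with triple stimuli, 0.86 in hypoxia, 1.48 on array A and 1.49 on array B, against 1.40 in control. Hypoxia alone was low, at 0.688 of control, and the other 5 arrays lay between 1.40 and 1.60. The further E2f3 probe gave -0.24 in hypoxia against the brighter probe's -0.54, so the call does not extend to it.

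E2f2 had levels of 2.65 with triple stimuli and rapamycin, 3.0 with triple stimuli, 2.53 in hypoxia, 2.86 on array A and 3.06 on array B, against 2.88 in control, with rapamycin and hypoxia lowest. E2f8, a repressor of the family, stood at 2.01 with triple stimuli and rapamycin, 1.96 with triple stimuli, 2.08 in hypoxia, 2.09 on array A and 2.19 on array B, against 2.26 in control. Control was the highest for E2f8, and no difference of either gene passed the mark.

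**Figure D3:**
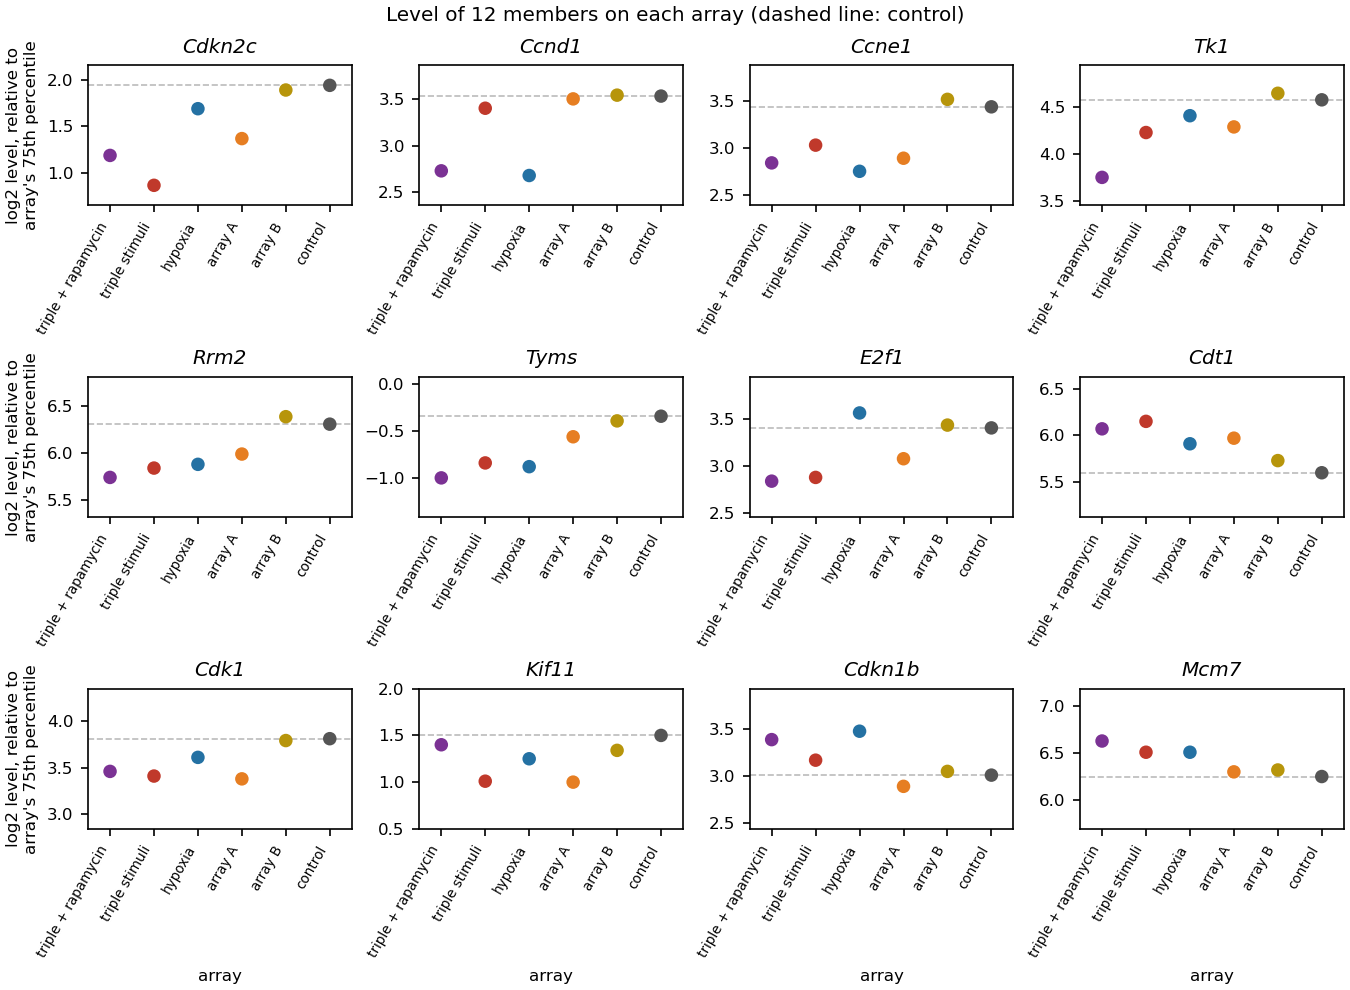
Log2 level, relative to the 75th percentile of the array, of 12 genes on each array; 1 point per array, no error since each condition has 1 array, and the dashed line marks control. Each panel has a vertical axis of its own that spans 1.5 units. Ccnd1 is low on the rapamycin and hypoxia arrays only, at 2.73 and 2.68, and Cdkn2c is lowest with triple stimuli, at 0.87.

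Genes of G2 and mitosis were low together on array A. All 18 measured G2/M genes were below 0 there against control (100.0%), beside 52.6% of bright genes, with differences between -0.50 and -0.01 and a median of -0.26. None of them passed 1.4-fold, so the observation is one of common direction and not of size. In the same comparison 18 of 30 G1/S genes were below 0, with a median of -0.02. Of the other probes of G2/M genes that were above background on all 6 arrays, 6 of 6, for 4 genes, were below 0 as well, between -0.36 and -0.11. A pair of further, dim Cdk1 probes, above background on 3 and on 2 arrays, gave 0.06 and -0.24. On array B 9 of 18 G2/M genes (50.0%) were below 0, beside 40.3% of bright genes.

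The wider set of 55 other G2/M genes, none of them among the 52, had 47 below 0 on array A (85.5%), with a median of -0.19. Array A held the lowest level of 29 of the 55, or 52.7%. Of the 52 other G1/S genes, 32 were below 0 on array A, or 61.5%, with a median of -0.07. Of the wider G2/M genes 0 rose and 4 fell past 1.4-fold on array A. The 3 that fell most were Cenpf, a kinetochore protein, and Spc25, a subunit of the Ndc80 complex of the kinetochore, each at -0.59, and Spc24, the partner of Spc25, at -0.52. Cenpf fell on array B too, at -0.51, so its fall is not particular to array A. Spc25 and Spc24 were at -0.06 and -0.12 on array B.

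The G2/M members differ in the other comparisons. In triple stimuli against control all 7 genes of the cyclin, kinase, phosphatase and transcription factor group were below 0, with a median of -0.28. The 11 mitosis genes had a median of -0.03, and 6 of them (54.5%) were below 0. Of bright genes 54.4% were below 0 in this comparison, so the mitosis genes lay at that share. The wider G2/M genes had a median of 0.05 in that comparison, opposite in sign to that of the 18 members, -0.16, and a median of 0.09 for rapamycin against control, where the members were at -0.10. The lower medians of the members in these comparisons therefore do not extend to the wider set.

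Cdk1, the kinase of mitotic entry, was at 3.46 with triple stimuli and rapamycin, 3.41 with triple stimuli, 3.61 in hypoxia, 3.38 on array A and 3.79 on array B, against 3.81 in control (chr10:68801072-68801131, mm9). Array B and control were alike and the others lower, by up to 0.44 on array A. Its partner Ccnb1, cyclin B1, was at 5.09 with triple stimuli and rapamycin, 5.12 with triple stimuli, 5.23 in hypoxia, 5.27 on array A and 5.48 on array B, against 5.43 in control. Ccnb2, cyclin B2, was at 4.67 with triple stimuli and rapamycin, 4.61 with triple stimuli, 4.94 in hypoxia, 4.55 on array A and 4.91 on array B, against 4.92 in control. Both cyclins had array B and control among their 3 highest levels, but hypoxia equalled these for Ccnb2 only.

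Cdc25c, the phosphatase that activates Cdk1, was at 1.12 with triple stimuli and rapamycin, 1.12 with triple stimuli, 1.16 in hypoxia, 1.05 on array A and 1.30 on array B, against 1.4 in control. Every array was below control, by 0.11 to 0.36. The other members of this role, Ccna2 (cyclin A2), Cdc25b and the transcription factor Foxm1, which drives the G2 genes, were each lowest on array A, at differences of -0.23, -0.32 and -0.26.

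Among the mitosis genes Kif11, the kinesin that pushes spindle poles apart, had levels of 1.40 with triple stimuli and rapamycin, 1.01 with triple stimuli, 1.25 in hypoxia, 1.00 on array A and 1.34 on array B, against 1.50 in control. Triple stimuli and array A were the low pair, at 0.715 and 0.708 of control, both a little short of the mark, and its probe (chr19:37495755-37495814, mm9) is in the first 64 spot rows. Rapamycin was 0.38 above triple stimuli, the largest positive difference of any member in that comparison. Top2a, the topoisomerase that untangles chromosomes, was at 4.29 with triple stimuli and rapamycin, 4.19 with triple stimuli, 4.47 in hypoxia, 3.99 on array A and 4.30 on array B, against 4.37 in control. Plk1, the Polo kinase of mitosis, measured 5.07 with triple stimuli and rapamycin, 5.10 with triple stimuli, 5.05 in hypoxia, 4.84 on array A and 5.28 on array B, against 5.20 in control. For both genes array A was the lowest, by 0.38 and 0.36 below control. Mki67, the Ki-67 proliferation marker, was 0.35 below control on array A and 0.21 above it in hypoxia.

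Bub1, a kinase of the spindle checkpoint, was above control on the 3 arrays at 1% oxygen, and its probe (chr2:127626988-127627047, mm9) has 10 spots on each array. The mean level over the spots was 3.34 ± 0.06 with triple stimuli and rapamycin, 3.23 ± 0.08 with triple stimuli, 3.33 ± 0.06 in hypoxia, 2.90 ± 0.05 on array A and 2.93 ± 0.05 on array B, against 2.98 ± 0.05 in control (SD over 10 spots of 1 array, so without biological error). The lowest spot at 1% oxygen was at 3.09 and the highest at 20% oxygen at 3.07. These spots are repeats on 3 arrays per oxygen level, each array of another treatment, and do not count as replicates. How many of all genes are split in this way was not counted. Its differences from control were 0.37 with rapamycin, 0.25 with triple stimuli and 0.36 in hypoxia, under the mark. Oxygen and slide row cannot be told apart in this. The paralog Bub1b was 0.20, 0.19 and 0.10 above control on the same 3 arrays and 0.21 below it on array A.

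**Figure D4:**
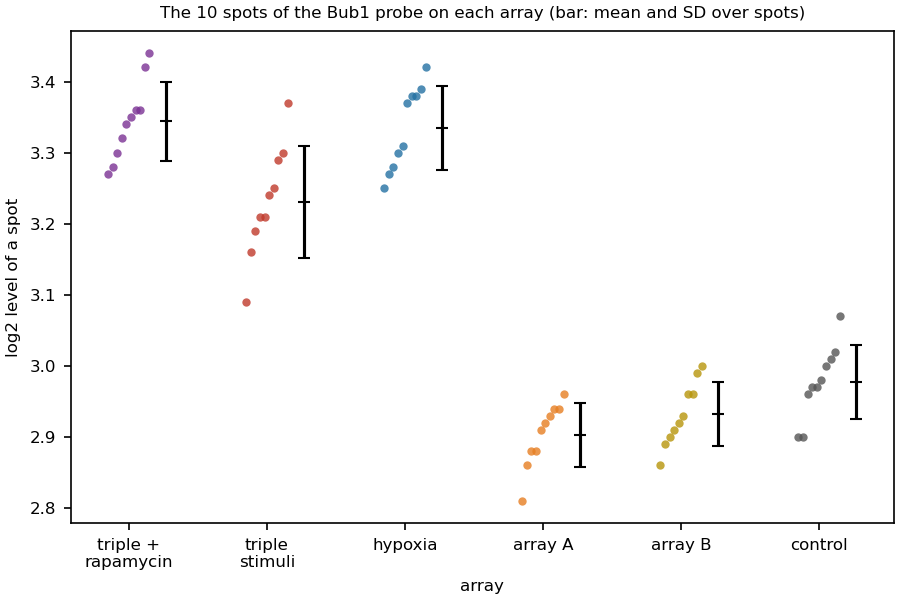
Log2 level of each of the 10 spots of the Bub1 probe (points, sorted within an array) on the 6 arrays, with the mean and SD over spots as bars. The spots of the rapamycin, triple stimuli and hypoxia arrays begin at 3.09, and those of array A, array B and control end at 3.07; the vertical axis does not start at 0.

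The remaining mitosis genes, Cdc20, Aurka, Birc5, Cenpa and Kif20a, passed the mark in no comparison. Cdc20, an activator of the anaphase-promoting complex, differed by only -0.01 on array A, the smallest shift of the 18. Birc5 (survivin), Aurka (Aurora A kinase), Cenpa (the centromeric histone) and Kif20a (a kinesin of cytokinesis) were at -0.25 to -0.16 there.

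The promoters of the 2 phases were compared after the G2/M genes were seen to be low together on array A, which the G1/S genes did not share. The lists were drawn up by phase and not by the levels on array A. RefSeq promoter windows (GRCm38.p6, 250 bases before to 50 after the annotated start) were available for 42 of the 52 genes, 5 of them with 2 windows. Windows were searched on both strands for an E2F-type motif (TTTCCCGC, TTTCGCGC, TTTGCCGC or TTTGGCGC), for the CHR element, the cell cycle genes homology region (TTTGAA or TTCGAA), and for CCAAT. The motif classes may lie side by side, and matches of 1 class may overlap each other. The E2F-type motif was in 11 of 30 G1/S windows (36.7%) and 1 of 14 G2/M windows (7.14%), beside 2.26% of all 32851 windows. A CHR element was in 12 of 14 G2/M windows (85.7%) and 5 of 30 G1/S windows (16.7%), beside 19.2% of all. CCAAT was in 13 of 14 G2/M windows (92.9%) and 19 of 30 G1/S windows (63.3%), beside 37.4% of all. A match describes the letters and not a bound site, and a link between motifs and levels was not tested. Of the G2/M genes, Ccnb1 and Birc5 had no CHR match and were at -0.17 and -0.22 on array A. Cdc20 had one and was at -0.01, and the other G2/M genes with one were at -0.50 to -0.07. The 5 G1/S windows with one were those of Mcm2 (0.19), Mcm7 (0.06), E2f2 (-0.02), E2f3 (0.08) and E2f8 (-0.17).

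The 150 bases directly before the start are shown for 3 G2/M genes that were among the lower ones on array A and for 2 G1/S genes that were within 0.08 of control there. They read from 5′ to 3′ on the gene's strand with GRCm38.p6 coordinates, and capitals mark the matches on either strand. In Cdk1 the single E2F-type match of the G2/M set stands upstream of 2 CHR elements and 2 CCAAT boxes, here read as ATTGG. Kif11 has 1 CHR element, read as TTCAAA, and 1 CCAAT box, and Top2a has 3 CHR elements and 4 CCAAT boxes.
Cdk1, chr10:69352913-69353062, minus strand: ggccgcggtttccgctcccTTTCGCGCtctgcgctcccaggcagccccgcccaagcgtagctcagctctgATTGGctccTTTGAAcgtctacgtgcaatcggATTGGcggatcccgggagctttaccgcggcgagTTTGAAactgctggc
Kif11, chr19:37376232-37376381, plus strand: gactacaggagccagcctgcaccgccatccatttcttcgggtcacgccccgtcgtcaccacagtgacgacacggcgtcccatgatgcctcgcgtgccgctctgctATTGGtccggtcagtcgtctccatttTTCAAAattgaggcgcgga
Top2a, chr11:99024190-99024339, minus strand: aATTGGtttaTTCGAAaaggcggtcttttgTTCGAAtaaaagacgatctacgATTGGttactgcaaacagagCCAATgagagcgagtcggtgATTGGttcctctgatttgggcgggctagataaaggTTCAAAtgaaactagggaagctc
Of the G1/S genes, Mcm6 has 3 E2F-type matches, of which 2 overlap in 1 run of capitals, and Cdc25a has 1. Each also has 2 CCAAT boxes and no CHR element in these bases.
Mcm6, chr1:128359706-128359855, minus strand: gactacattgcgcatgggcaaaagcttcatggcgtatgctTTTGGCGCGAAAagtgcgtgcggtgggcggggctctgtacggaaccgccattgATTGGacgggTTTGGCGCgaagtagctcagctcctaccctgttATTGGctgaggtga
Cdc25a, chr9:109875429-109875578, plus strand: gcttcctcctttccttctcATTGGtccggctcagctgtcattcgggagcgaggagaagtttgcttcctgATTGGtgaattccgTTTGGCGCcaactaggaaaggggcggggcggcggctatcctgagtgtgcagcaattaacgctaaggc

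Of the 2 inhibitors, Cdkn2c fell in 3 comparisons and Cdkn1b passed the mark in none. Cdkn2c, an Ink4-family inhibitor of Cdk4 and Cdk6, was at 1.19 with triple stimuli and rapamycin, 0.87 with triple stimuli, 1.69 in hypoxia, 1.37 on array A and 1.89 on array B, against 1.94 in control (chr4:109333508-109333567, mm9). It fell to 0.476 of control with triple stimuli (-1.07), to 0.598 of control with rapamycin (-0.74) and to 0.674 of control on array A (-0.57). Hypoxia alone was 0.24 below control and array B 0.05 below it. Rapamycin was 0.33 above triple stimuli, short of the mark. With the normexp background the triple stimuli difference was -0.96, just under 2-fold, and that of array A was -0.50, just under 1.4-fold.

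Cdkn1b, the Kip-family inhibitor that restrains cyclin E with Cdk2, was at 3.39 with triple stimuli and rapamycin, 3.17 with triple stimuli, 3.48 in hypoxia, 2.89 on array A and 3.05 on array B, against 3.01 in control. The 3 arrays at 1% oxygen were highest, by up to 0.46 in hypoxia, and none passed the mark. A further Cdkn1b probe gave larger differences, 0.76 with rapamycin, 0.42 with triple stimuli and 0.84 in hypoxia. The mean of both probes passed the mark for rapamycin and for hypoxia, so that these calls depend on the probe.

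The wider pathway is given by its counts, and the shares of bright genes at the same mark are those listed for the members. Of 52 other G1/S genes, 0 rose and 0 fell past 1.4-fold for rapamycin against triple stimuli, and the same held for rapamycin against control and array B against control. For triple stimuli against control 1 rose and 0 fell, for hypoxia 0 rose and 1 fell, and for array A 1 rose and 0 fell. The gene that rose with triple stimuli was Cdca7, an E2F target, at 0.64, the one that fell in hypoxia Clspn (claspin, of the replication checkpoint), at -0.52, and the one that rose on array A Orc5, a subunit of the origin recognition complex, at 0.57.

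Of 55 other G2/M genes, 1 rose and 0 fell for rapamycin against triple stimuli, 2 rose and 3 fell for rapamycin against control, and 0 rose and 4 fell for triple stimuli against control. In hypoxia 0 rose and 2 fell, and on array B 0 rose and 1 fell, which was Cenpf at -0.51. Cenpm, a centromere protein, fell by 0.94 with rapamycin, by 0.90 with triple stimuli and by 0.61 in hypoxia. Spc25 fell by 0.63 with rapamycin and by 0.86 with triple stimuli, while Ndc80, which sits in the same complex, rose by 0.81 with rapamycin and stood at 0.44 with triple stimuli. Ttk, a checkpoint kinase, was the gene that rose with rapamycin against triple stimuli, at 0.52, from a probe in the first 64 spot rows.

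Of 8 measured inhibitors and pocket proteins outside the 52 genes, 0 rose and 0 fell for rapamycin against triple stimuli, 1 rose and 2 fell for rapamycin against control, and 1 rose and 1 fell for triple stimuli against control. In hypoxia 1 rose and 0 fell, on array A 0 rose and 1 fell, and on array B 1 rose and 1 fell. Cdkn1a, the Cip-family inhibitor induced by p53, had levels of -2.18 with triple stimuli and rapamycin, -2.36 with triple stimuli, -2.60 in hypoxia, -3.13 on array A and -2.97 on array B, against -3.62 in control. This probe was not well above background in control, so all its differences from control rest on an uncertain level. That level was above the array's dimmest signal called well above background, -4.18, and was kept as measured. The differences were 1.45 with rapamycin, 1.27 with triple stimuli, 1.02 in hypoxia, 0.50 on array A and 0.65 on array B. A brighter Cdkn1a probe, left out for its outlier mark, was at 3.69 with triple stimuli and rapamycin, 4.11 with triple stimuli, 3.76 in hypoxia, 2.85 on array A and 2.63 on array B, against 2.47 in control. On both probes the 3 arrays at 1% oxygen were highest and control lowest, but the brighter one differed less on arrays A and B. The remaining Cdkn1a probe, above background on 2 arrays only, had its lowest level, -3.61, in hypoxia, against its highest, -2.86, in control, so the probes disagree. Cdkn1c, of the Kip family and dim as well, fell by 0.57 with rapamycin and by 0.72 on array B, and by 0.76 or more with triple stimuli, where it was not well above background. Cdkn2d, of the Ink4 family like Cdkn2c, fell by 0.79 on array A, and E2f4, a repressor of the E2F family, by 0.66 with rapamycin against control.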

How the data were processed

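RNA of mProx24 cells was measured on 6 single-colour arrays, 1 per condition. The authors read the arrays with Agilent Feature Extraction 10.7.3.1, per the submitters' processing notes. Its processed signal is, per the file headers, a background-subtracted intensity of each spot that has not been scaled across arrays. The deposited value table holds a ratio, that intensity divided by a percentile of its array; each column matched 1 scanner file with an SD of the log2 difference of at most 2.89e-07, the next best being at least 0.49, and 2 columns matched under exchanged labels (arrays A and B). The unit and the division of the ratio were read from its values, and the column medians were 0.0561 with triple stimuli and rapamycin, 0.0544 with triple stimuli, 0.0562 in hypoxia, 0.0535 for array A and 0.0516 for array B, against 0.0505 in control.

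Here, each scanner file's log2 intensities were centred on the 75th percentile of its 59305 non-control spots, and repeated spots of 1 probe were averaged. Of 55681 probes, 323 marked as outliers on any array were left out. A level not well above background was replaced, if lower, by the dimmest signal called well above background on that array, which makes the difference a bound. Values were given on every array for genes at least 2-fold different in any comparison and, per role group, for the 4 genes with the largest difference, and of the wider lists the 3 largest per direction and comparison could be named. Other genes named are part of counts or ranges and were named after their values were seen. The genes, the lists and the rules were chosen with earlier results of these data known. Probe positions are on mm9 as the files give them, without annotation of exons. The 8 alternatives of background, scaling, probe choice, filter, outlier mark, spot position, value table and gene list were planned, and 1, leaving out genes in the first 64 spot rows, was chosen after seeing the data. The counting was tested on simulated data. Tools were Python 3.11.15, pandas 2.3.3, numpy 2.4.6, used also for quantile normalization, and, for normexp with an offset of 50, limma 3.58.1 in R 4.3.3. No p-value was computed.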

Additional observations from a re-analysis of the deposited data

How the results depend on the processing

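Recomputed medians and counts stayed close to the values given in 232 cases and moved in 20. A median counted as close if it shifted by no more than the median SD between spots of its comparison. A count did so if it was equal or within a set ratio. Under quantile normalization the median difference for rapamycin against triple stimuli was -0.01 for G1/S and 0.11 for G2/M genes, the G2/M median for rapamycin against control was -0.02, and 2 members were 1.4-fold higher for rapamycin against control and 1 in hypoxia. With the normexp background 1 member was 1.4-fold lower for rapamycin against triple stimuli, 0 members were 2-fold different and 0 were 1.4-fold higher for triple stimuli against control, 3 were lower in hypoxia, 0 were higher and 1 was lower on array A, and the G2/M median in hypoxia was -0.09. With the mean of all probes of a gene 1 member was higher with rapamycin against control and 1 in hypoxia, and 4 were lower with triple stimuli. With the median of each spot row band subtracted 1 member was higher for rapamycin against control. In place of the members, the wider lists gave medians of -0.07 for G1/S and 0.09 for G2/M genes with rapamycin against control, and for G2/M genes 0.05 with triple stimuli and -0.19 on array A. For single genes, 144 values kept their call and size and 15 did not; 0 reversed. Leaving out the genes in the first 64 spot rows, keeping marked probes and using the value table moved none of 20 single-gene values. For the first this was fixed beforehand, since none of these genes lies in those rows. The value table holds the same signals divided by a constant for each array. It could only shift all differences of a comparison by the same amount. Both settings are part of the 144 and are no sign of stability. The 232 hold the value table too. They also hold counts of called genes that could not change when those rows were left out, since no called gene lies there. Requiring both arrays above background moved none of 19 and removed the Ccnd2 call in hypoxia, which could not be computed. The 19 could not move, since these genes were above background on both arrays compared. Taking the mean of all probes moved 4 of 20 and could not move a gene with 1 probe. Keeping marked probes could move a value only where a marked probe of the gene was brighter. Values that could not move are part of the 144 as well and are no sign of stability. The cause of these shifts was not tested. No paired analysis was possible because each condition has 1 array, and for the same reason no array could be left out. Signal close to background limits Ccnd2, Cdkn1a and Cdkn1c, each below the scanner software's call on 1 array, and Ccne2 and Aurkb, below it on all 6.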
